A study of Caenorhabditis elegans with 8 samples.

Results

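The genes described here encode lysozymes, saposin-like proteins and small secreted defence peptides of Caenorhabditis elegans. They were chosen by name alone, as every transcript in the 6 count tables whose gene symbol starts with lys-, ilys-, spp-, abf-, cnc-, fip-, fipr-, thn- or dod-. This gave 72 transcripts of 71 genes among 14396 transcripts listed in all. They were 9 lys, 4 ilys, 18 spp, 4 abf, 5 cnc, 5 fip, 15 fipr, 2 thn and 10 dod transcripts. Of these, 51 were listed in all 6 tables and 60 passed the count filter used for testing, beside 12592 of all transcripts.

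C. elegans feeds on bacteria and has no circulating immune cells, and its gut, pharynx and skin secrete enzymes and peptides that act on microbes. Lysozymes cut the peptidoglycan of bacterial walls, and the worm has a protist type (lys) and an invertebrate type (ilys). Saposin-like proteins (spp, the caenopores) bind lipid membranes, and some of them open pores in bacteria. The abf genes encode defensin-like antibacterial factors, the cnc (caenacin), fip and fipr genes encode short peptides linked to defence of the epidermis, and the thn genes encode thaumatin-like proteins. The dod genes carry their name because they lie downstream of DAF-16, the transcription factor of the insulin pathway. They are a mixed group, and several are also known as infection response genes.

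The libraries came from RNA of whole worms of the Bristol strain, raised at 22 °C to L4, the larval stage before adulthood, in 8 groups of 2 libraries. Wild type worms and worms labelled damt-1, a gene linked to adenine methylation of DNA, were each left untreated or given 1.92 µM antimycin A, which blocks complex III of the mitochondrial respiratory chain. Treated worms carried the labels P0, F1 or F2. Neither the damt-1 allele nor the exposure of the parents of F1 and F2 worms is given in the sources used here. The 2 libraries of a group are given as replicates without a statement that they came from separate cultures, so p-values measure the spread between these libraries, which may be technical.

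Library totals ran from 3541390 to 4365451 counts. Among principal components of log2 CPM, the first, with 49.1% of the variance, parted the genotypes. The second, with 18.7%, ran in wild type from untreated (-50.7 and -48.4) over P0 (-14.0 and -14.2) to F1 and F2 (17.9 to 21.3). In damt-1 it set the untreated libraries (25.5 and 25.1) apart from the treated ones (-1.11 to 0.37). The third, with 9.95%, set the untreated damt-1 libraries (36.9 and 35.9) apart from the treated ones (-15.3 to -13.3). It did so less widely in wild type (15.9 and 15.1 against -5.32 to -0.571). Levels are given as CPM, the usual scaling of counts by library size, with sizes corrected by TMM factors. The damt-1 transcript itself was not lower in untreated worms labelled damt-1, at 19.4 ± 3.4 CPM against 19.8 ± 0.25 CPM in wild type (log2 difference -0.03 ± 0.19, adjusted p = 0.93). It was lower in the P0 and F1 worms, by log2 values of -0.59 ± 0.18 (adjusted p = 0.015) and -0.77 ± 0.18 (adjusted p = 0.00086), and in F2 worms the value was -0.39 ± 0.17 (adjusted p = 0.062). The furrow collagens, cuticle genes whose transcripts cycle with the molt, differed between the groups, and their summed level was 362 to 366 CPM in untreated wild type, 613 to 626 in P0, 1010 in F1 and 1020 to 1040 in F2 libraries. In damt-1 worms it was 1600 to 1660 CPM untreated and 1360 to 1480 CPM treated. Its part in the differences below was not tested. Each genotype had 1 untreated group that served all 3 treated groups, so the comparisons with it are not independent of one another. In whole worms, fewer cells of a type and less RNA per cell cannot be told apart.

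Values of libraries stand in the order library 1 and library 2, and ± after a CPM marks the SD of the 2 libraries of a group. Differences are on the log2 scale with the standard error of the edgeR fit. A transcript is said to rise or fall where its Benjamini-Hochberg adjusted p was under 0.05. A transcript that a table does not list has no value for that table, and the smallest listed sum over the 4 libraries of any table was 11 counts. A transcript with few counts in 1 group of a table is therefore listed only where its other group is higher. Such a transcript could be seen to differ in that direction alone.

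The gut lysozymes and caenopores were the most counted members per length of transcript. The highest mean levels per kilobase were 397 CPM for lys-1, a lysozyme of the intestine, 363 for the fungus-induced peptide gene fipr-21 and 347 for lys-2. Next came spp-5, a caenopore that kills bacteria in the gut lumen, at 335 CPM per kilobase, then spp-14 at 306, lys-8 at 297, spp-3 at 288 and dod-24, which encodes a CUB-like domain protein, at 283. The caenopore gene spp-1 stood at 186 and the lysozyme gene lys-7 at 126 CPM per kilobase. At the other end, the invertebrate-type lysozyme gene ilys-3 stood at 2.57, the thaumatin-like gene thn-1 at 1.06 and dod-22 at 1.28 CPM per kilobase over the libraries that list them. The symbol cnc-2, a caenacin, was in none of the tables.

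Counts of most of the densest members varied less than the depth did. Of the 72 transcripts, 9 had at least 1 count per nucleotide, namely lys-1, lys-2, lys-8, spp-3, spp-5, spp-14, spp-17, fipr-21 and dod-24. The count of lys-1 ran from 1416 to 1568 over all 16 libraries, that of spp-17 from 370 to 395, that of spp-3 from 372 to 409 and that of spp-5 from 469 to 506. For 5 of the 9 the SD of the count over the 16 libraries was below the SD that counting alone gives for a Poisson variable (7.79 against 19.5 for spp-17), while library totals differed by up to 23.3%. The highest count stood above the lowest by 6.76% to 22.8% in 7 of the 9, and by more than the totals in lys-8 (33.8%) and dod-24 (53.7%). The largest difference of any of the 9 between untreated and F1 wild type worms was 0.15 on the log2 scale, against 4.7 among members under 0.2 counts per nucleotide. Over all 450 transcripts at 1 count per nucleotide or more the median absolute difference was 0.1 (largest 1.62), beside 0.09 for the 9. Between the 2 untreated wild type libraries the median log2 ratio of their counts was 0.05, where that of the totals was 0.14. Dense counts thus followed library size only in part, which limits the differences given below for the 9. The transcript with the most counts per nucleotide in the whole table stood at 3.31.

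**Figure D1:**
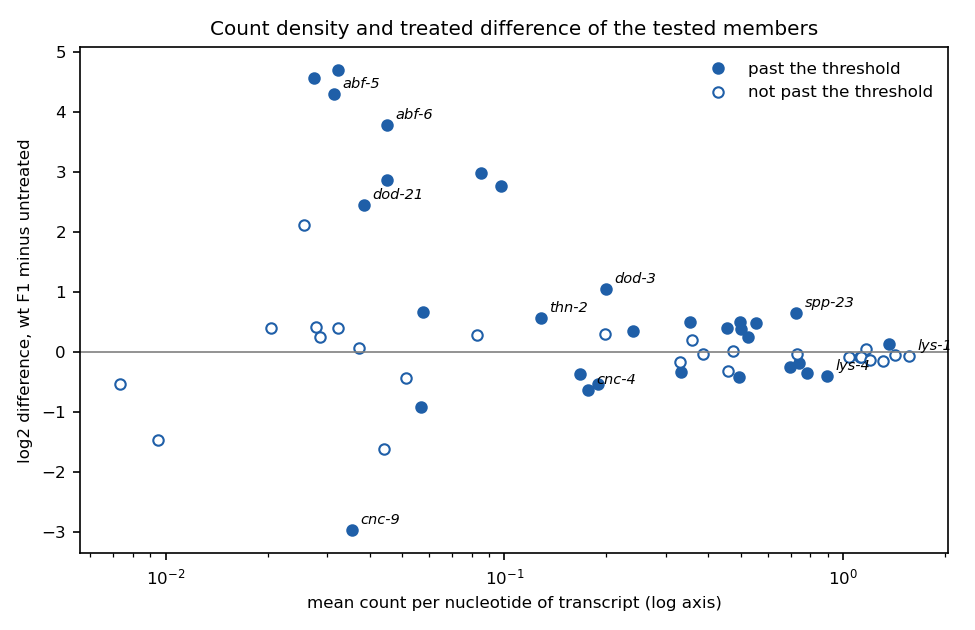
Mean count per nucleotide of transcript (log axis) against the log2 difference between F1 and untreated wild type worms, one point per tested member, filled where past the threshold. Members at 1 count per nucleotide or more lie within 0.15 of 0, and the differences above 2 in size belong to members under 0.2 counts per nucleotide.

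The first comparison asked which members differed in wild type worms given antimycin A. In P0 worms 8 members rose and 4 fell of 54 tested. These 12 are 22.2% of the members tested, beside 21.1% of all transcripts (13.0% higher and 8.14% lower). In F1 worms 20 rose and 11 fell of 57, or 54.4%, beside 46.9% of all transcripts (26.2% higher and 20.7% lower). In F2 worms 21 rose and 11 fell of 57, or 56.1%, beside 46.9% (25.9% higher). The members' share was close to the background in P0 and somewhat above it in F1 and F2. The members that rose in both F1 and F2 numbered 20 and those that fell in both numbered 10. How many of all transcripts did so in both was not counted. The risers included the peptide genes abf-5 and abf-6, 5 fipr genes, dod-21, dod-3, lys-7 and spp-8. Those that fell included lys-4, cnc-4, spp-16 and spp-22.

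The split between rises and falls depended on the scaling. With scaling factors from transcripts under 0.2 counts per nucleotide, the whole table's median shifted by -0.15 for F1 and -0.12 for F2. The counts were then 17 rises against 23 falls for F1, 15 against 15 for F2, and 6 against 6 for P0. Over all transcripts there were then 2379 rises against 4025 falls for F1, 2479 against 3675 for F2, and 1299 against 1274 for P0.

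**Figure D2:**
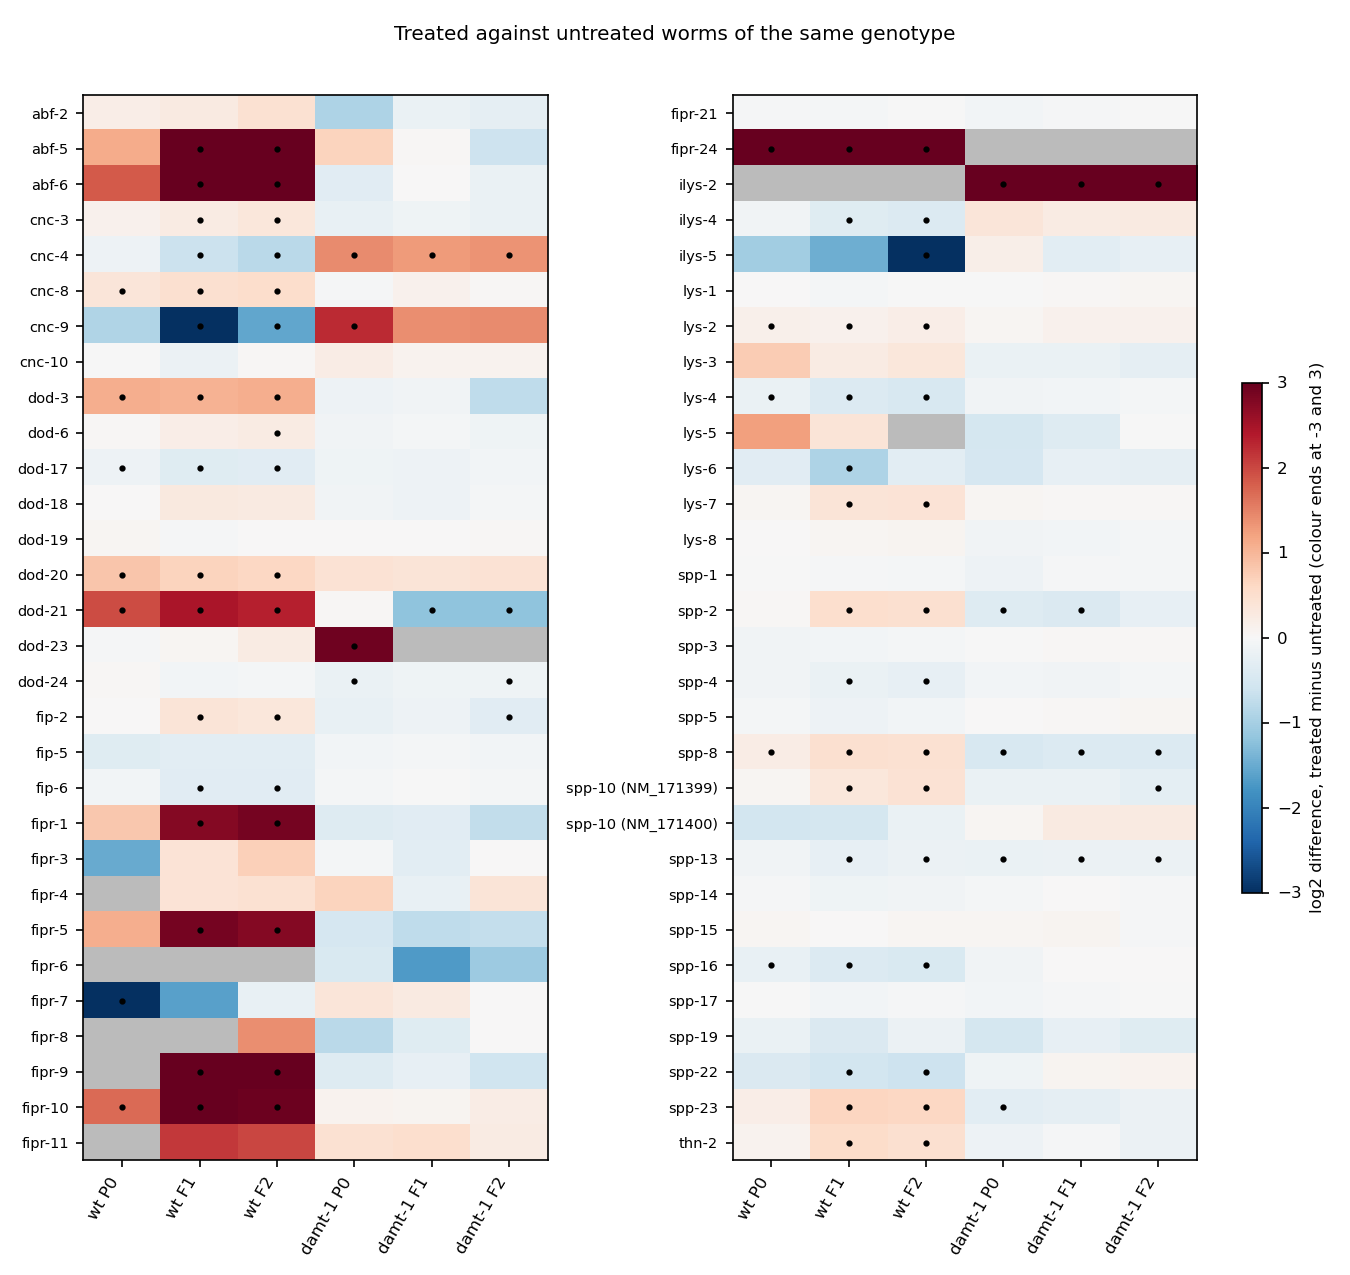
Log2 difference between treated and untreated worms of the same genotype for each tested member (rows) in the 6 treated groups (columns), with a dot where the adjusted p was under 0.05 and grey where the member was not tested. Rises of abf-5, abf-6 and fipr genes stand in the wild type F1 and F2 columns, and ilys-2 and cnc-4 rose in all 3 damt-1 columns.

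The defensin-like genes gave some of the largest rises. In untreated wild type libraries abf-5 stood at 0.787 and 0.236 CPM and in P0 libraries at 0.776 and 1.44 CPM. In F1 libraries it stood at 11.1 and 9.74 CPM and in F2 libraries at 7.15 and 10.7 CPM. All 4 F1 and F2 libraries lay above all 4 others. The untreated counts, 3 and 1, lay as a sum under the smallest listed sum of 11. The gene was thus listed only through its treated counts, and the tests are not independent of that choice. The log2 difference from untreated worms was 4.3 ± 0.58 in F1 (adjusted p = 1.5e-06). It was 4.08 ± 0.59 in F2 (adjusted p = 4.4e-06) and 1.12 ± 0.84 in P0 (adjusted p = 0.4).

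Its neighbour abf-6 stood at 1.57 and 0.236 CPM in untreated libraries, 3.36 and 3.12 in P0, 6.19 and 18.3 in F1 and 10.4 and 17.6 in F2. It was above the untreated libraries in every treated one, but the F1 libraries differed from each other almost 3-fold. With untreated counts of 6 and 1, abf-6 too was listed only through its treated counts. It rose by 3.78 ± 0.66 in F1 (adjusted p = 4.7e-05) and by 3.96 ± 0.65 in F2 (adjusted p = 2.3e-05). The third tested gene, abf-2, a pharyngeal peptide active against bacteria and yeast, stood at 7.61 and 4.95 CPM untreated, 6.72 and 7.67 in P0, 9.16 and 6.12 in F1 and 8.38 and 8.68 in F2, with a difference of 0.28 ± 0.4 in F1 (adjusted p = 0.59).

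Of 10 fipr transcripts tested in F1, 5 rose and 0 fell, and of 11 in F2 again 5 rose and 0 fell, beside 26.2% (F1) and 25.9% (F2) of all transcripts higher. Among the 5 were fipr-9 and fipr-24, which had 1 count over both untreated libraries and were listed only through their treated counts. A member so low in untreated worms could enter these counts only as a rise. The untreated counts of fipr-5 (2 and 5) and those of fipr-10 (7 and 2) also lay, as sums, under the smallest listed sum of 11. Their listing too needed treated counts, so the split of rises and falls among fipr genes is not independent of the listing. The gene fipr-1 had 2.88 and 2.12 CPM in untreated, 4.14 and 4.55 in P0, 14.4 and 19.5 in F1 and 21.9 and 14.6 CPM in F2 libraries. The F1 and F2 libraries lay above all others, with rises of 2.76 ± 0.34 in the former (adjusted p = 3.5e-07) and 2.86 ± 0.33 in the latter (adjusted p = 1.8e-07).

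Lower counts stood behind the other fipr rises. The gene fipr-24 had 1 count over both untreated libraries and 31 in F1, a ratio of 29.5 with a 95% counting interval of 4.92 to 1200, and fipr-9 had 1 and 34 counts, a ratio of 32.4 with an interval of 5.43 to 1320. In P0 fipr-7 had 0 counts against 15 untreated, at least 4.99-fold lower when the P0 sum is set to 3 counts, the limit that a count of 0 allows. By contrast fipr-21, the abundant member, had group means between 114 ± 7.0 and 118 ± 5.6 CPM in wild type. The fipr genes are a family of similar copies, so reads can be split among them and the value of a single gene is uncertain.

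In the fip genes the values were larger and the differences smaller. Of 3 tested, fip-2 rose by 0.39 ± 0.1 in F1 (39.0 ± 1.2 to 51.2 ± 1.0 CPM, adjusted p = 0.0023). The gene fip-6 fell by 0.34 ± 0.1 in F1 (45.8 ± 0.44 to 36.1 ± 1.7 CPM, adjusted p = 0.0098). Each had a like value in F2, 0.33 ± 0.1 for fip-2 (adjusted p = 0.0095) and -0.33 ± 0.11 for fip-6 (adjusted p = 0.013). The F1 difference of fip-6 ceased to pass without the first F1 library (-0.3, adjusted p = 0.069), and both F2 differences without some single libraries (adjusted p = 0.052 to 0.073).

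The caenacins moved in both directions in wild type. The gene cnc-4 stood at 25.2 and 22.2 CPM untreated, 21.2 and 21.3 in P0, 15.3 and 14.9 in F1 and 11.3 and 15.6 in F2. The F1 and F2 libraries lay below the untreated and P0 ones, and cnc-4 fell by 0.64 ± 0.18 in F1 (adjusted p = 0.0044) and by 0.81 ± 0.18 in F2 (adjusted p = 0.00077). The low-count gene cnc-9 went from 6.82 and 8.49 CPM to 1.24 and 0.68 in F1 and 2.96 and 2.23 in F2. It fell by 2.98 ± 0.58 (adjusted p = 0.00018) and by 1.55 ± 0.49 (adjusted p = 0.012). Against this, cnc-3 and cnc-8 rose, cnc-8 in all 3 treated groups, from 29.9 ± 5.2 CPM to between 38.4 ± 3.1 and 42.9 ± 2.1 CPM. Without the second untreated library the values of cnc-8 were 0.19 in P0 (adjusted p = 0.44), 0.31 in F1 (adjusted p = 0.091), then 0.36 in F2 (adjusted p = 0.051). The P0 rise also failed without either P0 library (0.28 and 0.45, adjusted p = 0.26 and 0.056).

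Among 8 lys genes tested in F1, 2 rose (lys-2 and lys-7) and 2 fell (lys-4 and lys-6), beside 26.2% of all transcripts higher and 20.7% lower. The gene lys-7, a lysozyme under DAF-16 and DBL-1 control, stood at 118 CPM in the second untreated library, where the SD of both libraries was 0.63 CPM, at 125 ± 3.7 CPM in P0, 156 and 153 in F1 and 157 and 158 in F2. All 4 F1 and F2 libraries lay above the P0 and untreated ones, with rises of 0.38 ± 0.05 (adjusted p = 7e-07) and 0.41 ± 0.05 (adjusted p = 2.7e-07). The gene lys-4 stood at 152 and 150 CPM untreated, 137 and 127 in P0, 120 and 108 in F1 and 109 and 108 in F2. All treated libraries lay below the untreated ones, and it fell by 0.2 ± 0.06 in P0 (adjusted p = 0.031), 0.41 ± 0.07 in F1 (adjusted p = 1.7e-05), then 0.47 ± 0.07 in F2 (adjusted p = 2.9e-06). The P0 value did not pass with DESeq2, nor without the first (-0.19, adjusted p = 0.12) or second untreated library (-0.21, adjusted p = 0.093) or the second P0 library (-0.14, adjusted p = 0.29).

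The low-count lys-6 went from 5.26 CPM untreated to 2.73 in F1 (-0.93 ± 0.37, adjusted p = 0.04), and did not pass without the first untreated library or either F1 library (-1.06 to -0.72, adjusted p = 0.074 to 0.23). The abundant lys-1 differed by -0.07 ± 0.05 in F1 (adjusted p = 0.3) and lys-8, a DBL-1 target, by 0.05 ± 0.05 (adjusted p = 0.47). For lys-2 the fit gave 0.13 ± 0.05 in F1 (adjusted p = 0.032), but with factors from sparse transcripts the value was -0.01, and it was 0.08 without the second untreated library (adjusted p = 0.34) or the first F1 library (adjusted p = 0.32). The gene ilys-4 fell by 0.37 ± 0.13 in F1 (adjusted p = 0.029), and it did not pass without the second untreated library (-0.31, adjusted p = 0.16) or without either F1 library (-0.34 and -0.43, adjusted p = 0.11 and 0.052). The gene ilys-5 went from 27 counts over both untreated libraries to 3 in F2, a ratio of 0.111 with a 95% counting interval of 0.0215 to 0.36. For ilys-3, which acts in digestion and defence, 1 count untreated stood against 11 in F1 and 10 in F2. The ratios were 10.5 (1.52 to 451) and 9.96 (1.42 to 432). In these groups ilys-3 was listed only through its treated counts, so only a rise could be seen.

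Among 16 saposin-like transcripts tested in wild type, 4 rose and 4 fell in each of F1 and F2, shares close to those of all transcripts (26.2% higher and 20.7% lower in F1). The gene spp-8 stood at 173 and 170 CPM untreated, 195 and 204 in P0, 244 and 234 in F1 and 230 and 241 in F2. Every treated library lay above the untreated ones, with rises of 0.22 ± 0.05 in P0 (adjusted p = 0.0026), 0.48 ± 0.05 in F1 (adjusted p = 2.3e-08), then 0.46 ± 0.05 in F2 (adjusted p = 4.6e-08). The P0 rise was 0.18 (adjusted p = 0.062) without the second P0 library. The gene spp-23 rose from 49.6 and 47.2 CPM to 77.0 and 74.3 in F1, by 0.65 ± 0.09 (adjusted p = 1.3e-06).

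Among the falling ones spp-16 went from 84.3 ± 1.3 CPM to 72.0 ± 0.52 in P0, 63.1 ± 4.3 in F1 and 61.5 ± 4.3 in F2. Every treated library lay below both untreated ones, and it fell by 0.42 ± 0.08 in F1 (adjusted p = 9.6e-05) and by 0.46 ± 0.08 in F2 (adjusted p = 4.6e-05). The gene spp-22 fell to 19.3 ± 1.0 CPM in F1 (-0.54 ± 0.17, adjusted p = 0.0096), and did not pass without the second untreated (-0.31, adjusted p = 0.24) or the second F1 library (-0.52, adjusted p = 0.058). The well-studied caenopores spp-1 and spp-5 differed by -0.04 ± 0.06 (adjusted p = 0.69) and -0.15 ± 0.06 (adjusted p = 0.059) in F1. The main transcript of spp-10, NM_171399, rose by 0.34 ± 0.07 in F1 (adjusted p = 0.00021), while the other, NM_171400, had 5 to 17 counts a library and -0.53 ± 0.56 (adjusted p = 0.46). The 2 share most of their sequence, so the division of reads between them is uncertain.

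Among the dod genes dod-21 and dod-3 already stood high in P0. The gene dod-21 had 5.51 and 2.36 CPM untreated, 16.6 and 13.7 in P0, 21.4 ± 6.5 in F1 and 19.5 and 19.6 in F2. All 6 treated libraries lay above both untreated ones. The rises were 1.96 ± 0.35 in P0 (adjusted p = 0.00018), 2.45 ± 0.33 in F1 (adjusted p = 1.5e-06), then 2.33 ± 0.33 in F2 (adjusted p = 3.8e-06).

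The gene dod-3 had 19.4 and 17.7 CPM untreated, 41.1 and 38.6 in P0, 36.9 and 39.2 in F1 and 40.2 and 39.2 in F2. It stood near the same level in all 3 treated groups, each about 1.1 on the log2 scale above untreated (1.1 ± 0.16 in P0, adjusted p = 1.8e-05). The gene dod-20 rose from 9.7 and 10.4 CPM untreated to 18.6 and 17.5 in P0 (0.84 ± 0.21, adjusted p = 0.0051), and dod-17 fell from 262 ± 9.1 to 205 ± 2.7 CPM in F1 (-0.36 ± 0.05, adjusted p = 1.7e-06). The abundant dod-24 differed by -0.09 ± 0.04 in F1 (adjusted p = 0.073), and dod-22 was too low to test, at 0.892 ± 0.59 CPM untreated and 2.39 ± 1.0 CPM in P0. The thaumatin-like gene thn-2, which takes part in resistance to Pseudomonas aeruginosa, rose from 24.4 ± 3.8 to 35.8 ± 3.6 CPM in F1 (0.56 ± 0.15, adjusted p = 0.0039), and did not pass without the second untreated (0.4, adjusted p = 0.089) or the first F1 library (0.45, adjusted p = 0.057).

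**Figure D3:**
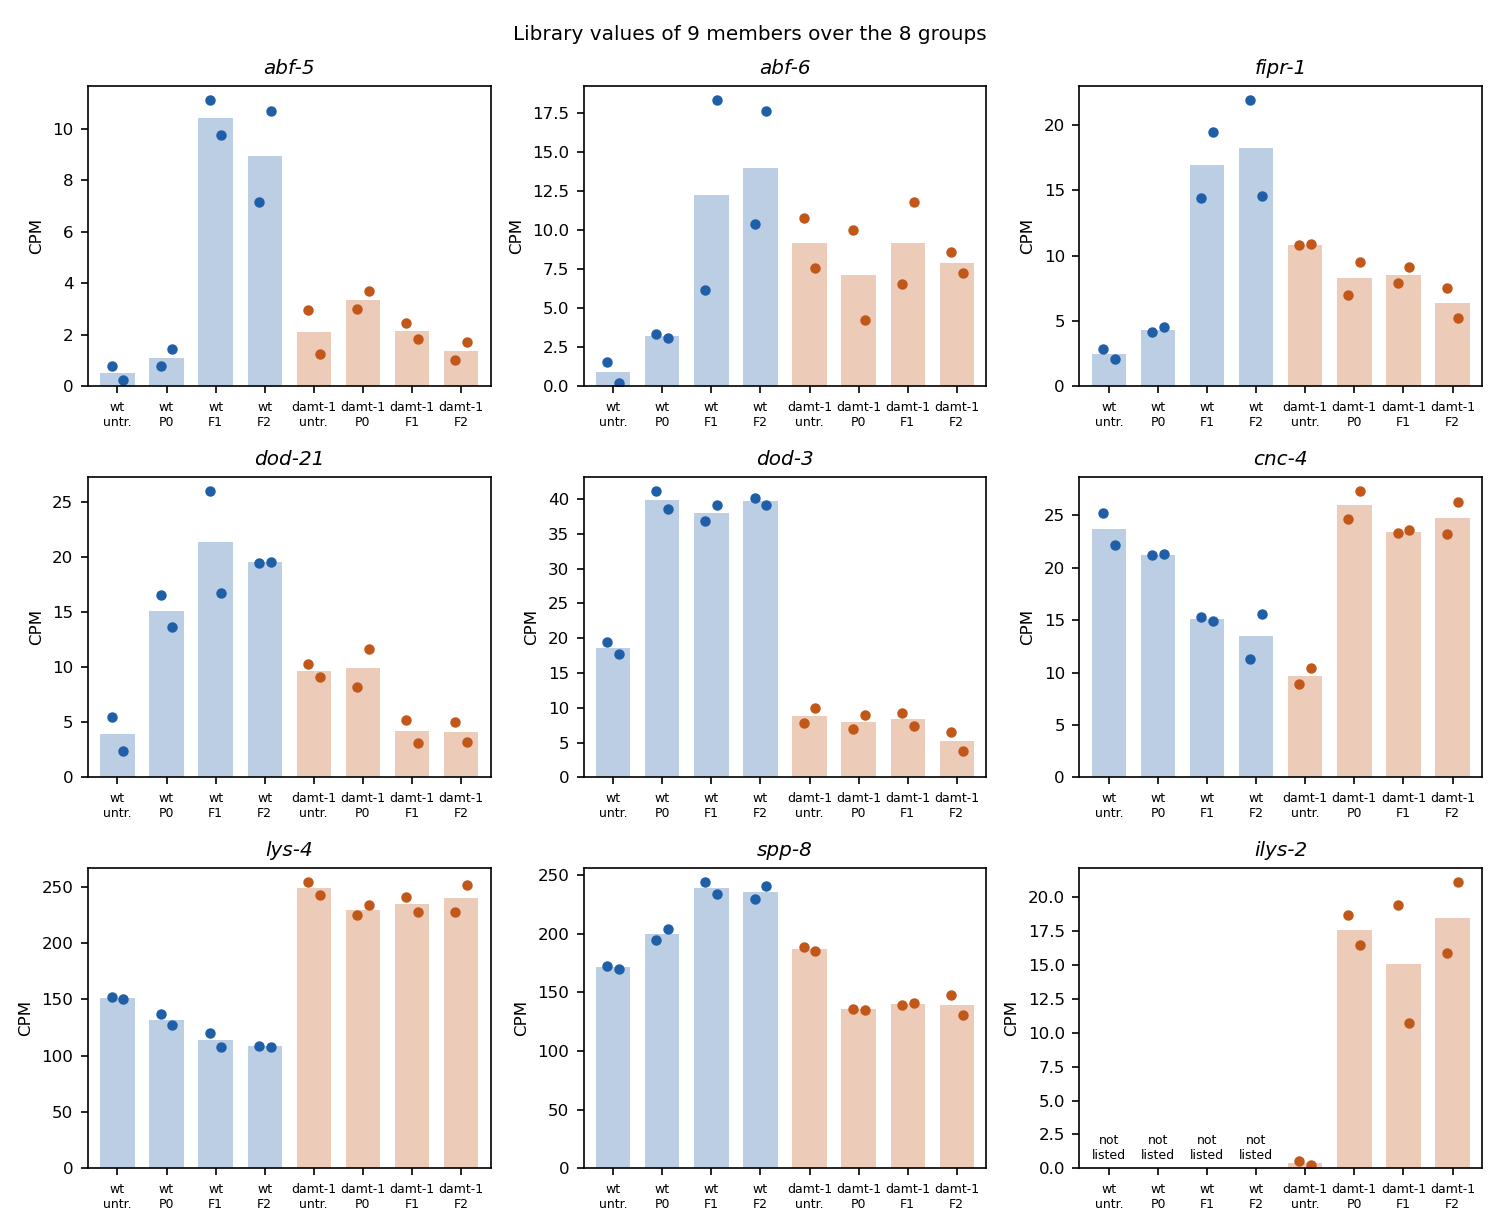
CPM of 9 members in each of the 16 libraries (points) with group means (bars), wild type in blue and damt-1 in orange. In wild type, abf-5, abf-6 and fipr-1 stand highest in F1 and F2, dod-21 and dod-3 stand high from P0 on, and cnc-4 and lys-4 fall. In damt-1 worms cnc-4 and ilys-2 stand low only in the untreated libraries.

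The second comparison asked the same of worms labelled damt-1. In P0 4 members rose and 5 fell of 59 tested, or 15.3%, beside 14.1% of all transcripts (8.41% higher and 5.68% lower). In F1 2 rose and 4 fell of 58, or 10.3%, beside 13.2% (7.69% higher and 5.53% lower). In F2 2 rose and 6 fell of 58, or 13.8%, beside 13.7% (7.9% higher and 5.84% lower). The members' shares lay near the background in all 3 groups. In each of the 3 groups cnc-4 and ilys-2 rose and spp-8 and spp-13 fell. How many of all transcripts were called alike in all 3 was not counted.

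The invertebrate-type lysozyme gene ilys-2 gave the largest difference of these. It had 3 counts over the 2 untreated damt-1 libraries (0.54 and 0.253 CPM) and 137 counts in P0 (18.7 and 16.5 CPM), 112 in F1 (19.4 and 10.7 CPM) and 136 in F2 (15.9 and 21.1 CPM). The ratios were 45.0 (95% counting interval 15.1 to 221), 38.2 and 46.7 (15.6 to 229), with adjusted p = 6e-07, 1.5e-06 and 4.8e-07. All 6 treated libraries lay above both untreated ones, and no wild type table lists the gene. It was listed and tested only through its counts in treated damt-1 libraries, so the test is not independent of that choice. Its neighbour ilys-3 had 0 counts untreated and 18, 13 and 16 counts in P0, F1 and F2. These were at least 5.91-fold, 4.44-fold and 5.49-fold higher with the untreated sum set to 3 counts. In these groups ilys-3 too was listed only through its treated counts.

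Transcripts of some adult cuticle collagens moved with this in the same libraries. Of 5 adult collagens listed, col-7, col-19 and col-62 rose in each of the damt-1 treated groups, and bli-1 fell in P0 (-0.16 ± 0.04, adjusted p = 0.0069) and F1 (-0.13 ± 0.04, adjusted p = 0.023). From untreated to P0 damt-1 worms the mean of col-19 went from 0.523 to 130 CPM, that of col-7 from 0.127 to 18.2 CPM and that of col-62 from 0 to 27.3 CPM. The summed level of the list, most of it bli-1 and bli-2, was 1580 to 1620 CPM untreated and 1600 to 1650 CPM in P0. In wild type F1 worms 1 of the 5 rose and 4 fell (median -1.28), and in F2 again 1 rose and 4 fell (median -1.38). The part of this difference in the values of ilys-2 and cnc-4 was not tested.

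The caenacin gene cnc-4 stood at 8.9 and 10.4 CPM in untreated damt-1 worms, 24.7 and 27.3 in P0, 23.3 and 23.6 in F1 and 23.2 and 26.3 in F2. All treated libraries lay above the untreated ones, and it rose by 1.42 ± 0.19 (adjusted p = 6.6e-06), 1.27 ± 0.2 (adjusted p = 4.4e-05) and 1.35 ± 0.2 (adjusted p = 1.9e-05). The low-count cnc-9 rose in P0, from 1.05 ± 0.42 to 5.01 ± 0.33 CPM (2.23 ± 0.62, adjusted p = 0.015). The gene dod-23 had 2 counts untreated and 17 in P0, a ratio of 8.37 with a 95% counting interval of 1.99 to 74.7. The untreated counts of cnc-9 (5 and 3), like those of dod-23, lay as a sum under the smallest listed sum of 11. Both genes were listed beside P0 only through their treated counts, so these rises are not independent of the listing.

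The saposin-like gene spp-8 stood at 189 and 185 CPM in untreated damt-1 worms, 136 and 135 in P0, 139 and 141 in F1 and 148 and 131 in F2. Both untreated libraries lay above all treated ones, with falls of 0.47 ± 0.06 (adjusted p = 1e-06), 0.42 ± 0.06 (adjusted p = 5.1e-06) and 0.42 ± 0.06 (adjusted p = 5.8e-06). The fall of spp-13 was small, 0.21 ± 0.05 in P0 (adjusted p = 0.0099), 0.18 ± 0.05 in F1 (adjusted p = 0.029), then 0.17 ± 0.05 in F2 (adjusted p = 0.045). It did not pass in P0 without library 1 of either group (-0.19 and -0.19, adjusted p = 0.095 and 0.11), nor in F1 or F2 without any one library of those groups (-0.21 to -0.15, adjusted p = 0.07 to 0.22).

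The gene spp-2 fell by 0.38 ± 0.11 in P0 (adjusted p = 0.017) and by 0.43 ± 0.11 in F1 (adjusted p = 0.0075). The P0 fall did not pass without either untreated library or the first P0 library (-0.4 to -0.32, adjusted p = 0.063 to 0.16). The F1 fall did not pass without the second untreated or second F1 library (-0.41 and -0.4, adjusted p = 0.062 and 0.072). The gene dod-21 stood at 10.3 and 9.12 CPM untreated, 8.24 and 11.7 in P0, 5.2 and 3.14 in F1 and 5.04 and 3.18 in F2. Its value was -1.21 ± 0.38 in both F1 and F2 (adjusted p = 0.032 and 0.033), and neither call held without either untreated library or the second library of the treated group (-1.3 to -0.89, adjusted p = 0.079 to 0.27). In P0 spp-23 fell from 59.5 ± 5.6 to 47.9 ± 1.3 CPM. In F2 fip-2 fell from 44.1 ± 4.0 to 34.4 ± 0.86 CPM and the main spp-10 transcript from 75.2 ± 2.8 to 61.2 ± 5.7 CPM. None of these calls held without the first untreated library, where the log2 values of spp-23, fip-2 and spp-10 were -0.22, -0.26 and -0.26. The call of spp-23 was also lost without either P0 library (-0.28 and -0.34). That of fip-2 was lost without either F2 library (-0.38 and -0.33) and that of spp-10 without the first F2 library (-0.2). Of 8 lys transcripts tested, 0 passed in any of the 3 groups, beside 14.1%, 13.2% and 13.7% of all transcripts in P0, F1 and F2. With so few genes this lies near that background.

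The third comparison set damt-1 worms against wild type worms of the same condition. Of the untreated worms, 21 members were higher in damt-1 and 9 lower of 57 tested, or 52.6%, beside 38.2% of all transcripts (17.9% higher and 20.3% lower). In P0 15 were higher and 10 lower of 53, or 47.2%, beside 35.8% (15.5% higher and 20.2% lower). In F1 18 were higher and 16 lower of 55, or 61.8%, beside 51.4% (24.6% higher and 26.9% lower). In F2 17 were higher and 15 lower of 55, or 58.2%, beside 49.3% (23.3% higher). At 1 count per nucleotide or more stood 3 of the higher and 2 of the lower members in each of F1 and F2. As a set such dense counts followed library size only in part. In all 4 conditions cnc-3, dod-20, fip-5, lys-4, lys-6, spp-13 and spp-19 were higher and dod-24, dod-3 and lys-7 were lower. How many of all transcripts were called alike in all 4 was not counted. For dod-20 the P0 difference (0.53 ± 0.18, adjusted p = 0.025) did not pass without any one of the 4 libraries (0.48 to 0.57, adjusted p = 0.059 to 0.13) and the F2 difference (0.76 ± 0.19, adjusted p = 0.0016) without the first wild type library (0.52, adjusted p = 0.055). With factors from sparse transcripts, 26 members were higher and 7 lower in untreated worms, 22 and 8 in P0, 28 and 10 in F1, and 26 and 13 in F2. The whole table's median shifted by 0.09, 0.12, 0.24 and 0.22. Of all transcripts 3069 were then higher and 2109 lower in untreated worms. In P0 3516 were higher and 1994 lower, in F1 5301 and 2312, and in F2 5223 and 2315.

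The lysozyme genes lys-4, lys-5 and lys-6, which lie next to each other on chromosome IV, stood higher in damt-1 worms. The level of lys-4 was 254 and 243 CPM in untreated damt-1 worms, 225 and 234 in P0, 241 and 228 in F1 and 228 and 252 in F2. All 8 damt-1 libraries lay above all 8 wild type libraries, whose highest value was 152 CPM. The difference was 0.72 ± 0.06 in untreated worms (adjusted p = 1.9e-10), 0.8 ± 0.06 in P0 (adjusted p = 1.1e-10), 1.05 ± 0.06 in F1 (adjusted p = 1.2e-12), then 1.14 ± 0.06 in F2 (adjusted p = 3.6e-13).

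The level of lys-6 was 6.03 and 4.48 CPM in untreated wild type and 20.8 and 19.3 CPM in untreated damt-1 libraries. Over all conditions it lay between 2.49 and 6.03 CPM in wild type and between 12.2 and 20.8 CPM in damt-1 libraries, so the genotypes did not overlap, and the differences ran from 1.78 ± 0.29 in P0 (adjusted p = 2.8e-05) to 2.62 ± 0.3 in F1 (adjusted p = 1.4e-07). The level of lys-5 was 1.05 and 0.236 CPM in untreated wild type and 9.44 and 12.9 CPM in untreated damt-1 libraries (4.1 ± 0.54, adjusted p = 1.3e-06). It was also higher in P0 (2.37 ± 0.48, adjusted p = 0.00037) and F1 (3.32 ± 0.52, adjusted p = 1.5e-05). It was not listed in the F2 table of wild type, so no F2 test was made.

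The lysozyme gene lys-7 was lower in damt-1 worms, at 85.2 and 86.2 CPM untreated, 90.9 and 87.6 in P0, 87.3 and 88.2 in F1 and 86.9 and 88.1 in F2. Its level was close to 1 value in all 4 damt-1 groups and every wild type library lay above them. The difference was -0.47 ± 0.06 in untreated worms (adjusted p = 3.1e-07) and -0.85 ± 0.05 in F2 (adjusted p = 6.2e-12). The abundant lys-1 and lys-2 differed by -0.02 ± 0.05 (adjusted p = 0.77) and 0.0 ± 0.05 (adjusted p = 0.96) in untreated worms. With factors from sparse transcripts lys-2 was higher in damt-1 worms by 0.24 in F1 and 0.17 in F2. For lys-8 the fit gave -0.19 ± 0.05 in P0 (adjusted p = 0.0041) and -0.2 ± 0.05 in F1 (adjusted p = 0.0018), where the same alternative gave 0.04 in F1. Neither passed without the first wild type library (-0.16 and -0.13, adjusted p = 0.054 and 0.065).

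Of the saposin-like genes spp-19 was higher in damt-1 worms, at 16.3 ± 0.95 CPM untreated against 5.43 ± 1.0 CPM in wild type (1.58 ± 0.36, adjusted p = 0.001). The untreated groups did not overlap, and the P0 value of 1.27 ± 0.38 (adjusted p = 0.012) went to 0.7 (adjusted p = 0.29) without the first damt-1 P0 library and to 0.81 (adjusted p = 0.17) without the first wild type one. The F2 difference was 1.09 (adjusted p = 0.061) without the first wild type library. The gene spp-13 was higher by between 0.28 ± 0.06 in P0 (adjusted p = 0.00025) and 0.45 ± 0.06 in F1 (adjusted p = 5e-07). In untreated worms spp-8 differed by 0.13 ± 0.05 (adjusted p = 0.062), and in P0, F1 and F2 it was lower in damt-1 by 0.56 ± 0.05 (adjusted p = 1.4e-08), 0.77 ± 0.05 (adjusted p = 2.2e-11) and 0.75 ± 0.05 (adjusted p = 3.9e-11), each as a log2 value.

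The peptide gene fip-5 was higher in damt-1, at 42.6 and 47.4 CPM untreated against 29.4 and 33.7 CPM, without overlap, and the differences were 0.51 ± 0.13 untreated (adjusted p = 0.0021) and 0.8 ± 0.13 in P0 (adjusted p = 3.9e-05). The gene fip-6 was lower in untreated and P0 worms, by log2 values of -0.52 ± 0.11 (adjusted p = 0.0005) and -0.5 ± 0.11 (adjusted p = 0.00094). The caenacin gene cnc-3 was higher by 0.89 ± 0.09 in untreated worms (78.1 ± 2.1 against 42.1 ± 2.8 CPM, adjusted p = 1e-08) and by 0.34 ± 0.09 in F2 (adjusted p = 0.0025). The gene ilys-4 was lower in untreated damt-1 worms, 26.7 ± 4.2 against 41.4 ± 2.2 CPM (-0.63 ± 0.14, adjusted p = 0.00098). Lower in damt-1 too was abf-2, in P0 (2.16 ± 1.2 against 7.2 ± 0.67 CPM, log2 -1.71), F1 and F2. No call of abf-2 held without the second damt-1 library of its group, where the values were -1.26, -0.62 and -0.99. For thn-2 the log2 values were -0.53 in P0, -0.86 in F1 and -0.92 in F2, each called lower. The P0 call of thn-2 did not hold without the second damt-1 library (-0.43). In F1 lys-3 was higher, at 10.3 ± 1.4 against 5.37 ± 2.3 CPM. That call did not hold without the first wild type library (0.55).

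The gene dod-3 was lower in damt-1 in every condition, at 7.82 and 9.89 CPM untreated, 6.99 and 9.02 in P0, 9.31 and 7.33 in F1 and 6.55 and 3.76 in F2. No damt-1 library reached the lowest wild type value of 17.7 CPM. The difference was -1.06 ± 0.21 in untreated worms (adjusted p = 0.00032) and between -2.91 ± 0.21 and -2.19 ± 0.19 in treated ones (adjusted p = 7e-11 in F2 and 1.8e-09 in F1). The abundant dod-24 was lower by log2 values from -0.43 ± 0.04 in P0 (adjusted p = 2.3e-08) to -0.2 ± 0.04 in untreated worms (adjusted p = 0.00051), and the F1 value of -0.23 ± 0.04 (adjusted p = 0.00011) was 0.01 with factors from sparse transcripts. Under these the untreated value did not pass (-0.11, adjusted p = 0.15). The gene dod-23, tested in 2 conditions, had 9.18 and 8.97 CPM in untreated wild type and 0.27 and 0.253 CPM in untreated damt-1 libraries, the latter from 2 counts (-4.96 ± 0.58, adjusted p = 3.4e-07).

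For 5 members the sign of the genotype difference turned between untreated and treated worms, with a call on each side. Higher in untreated damt-1 worms and lower in F1 or F2 were abf-5, dod-21, fipr-1 and spp-23. The gene cnc-4 was lower in untreated damt-1 worms and higher in F1 and F2. How many of all transcripts turned in this way was not counted, so the 5 have no background to stand beside. Of all transcripts 38.2% were called between genotypes in untreated, 51.4% in F1 and 49.3% in F2 worms. In untreated worms fipr-1 was higher in damt-1 by 2.11 ± 0.36 (10.8 and 10.9 CPM against 2.88 and 2.12, adjusted p = 4.7e-05), and in F2 it was lower by a log2 value of -1.5 ± 0.28 (7.56 and 5.2 CPM against 21.9 and 14.6, adjusted p = 0.00012). Neither pair of groups overlapped.

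For dod-21 the genotype difference was 1.32 ± 0.38 untreated (adjusted p = 0.0072) and -2.35 ± 0.33 in F1 (adjusted p = 2.8e-06), and the first was 0.81 (adjusted p = 0.16) without the second wild type untreated library. For abf-5 it was 2.01 ± 0.75 untreated (adjusted p = 0.038) and -2.27 ± 0.45 in F1 (adjusted p = 0.00021), and the first did not pass without the second wild type library (1.38, adjusted p = 0.26) or the first damt-1 library (1.29, adjusted p = 0.35). For spp-23 it was 0.3 ± 0.09 (adjusted p = 0.013) and -0.62 ± 0.09 (adjusted p = 2.8e-06), and the first did not pass without the first damt-1 (0.2, adjusted p = 0.23) or the second wild type library (0.26, adjusted p = 0.1). For cnc-4 it was -1.29 ± 0.2 untreated (adjusted p = 9.4e-06) and 0.87 ± 0.18 in F2 (adjusted p = 0.00037). In untreated worms abf-6 was higher in damt-1, at 10.8 and 7.6 CPM against 1.57 and 0.236 CPM (3.35 ± 0.7, adjusted p = 0.00045), and in F1 it differed by -0.43 ± 0.43 (adjusted p = 0.42).

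**Figure D4:**
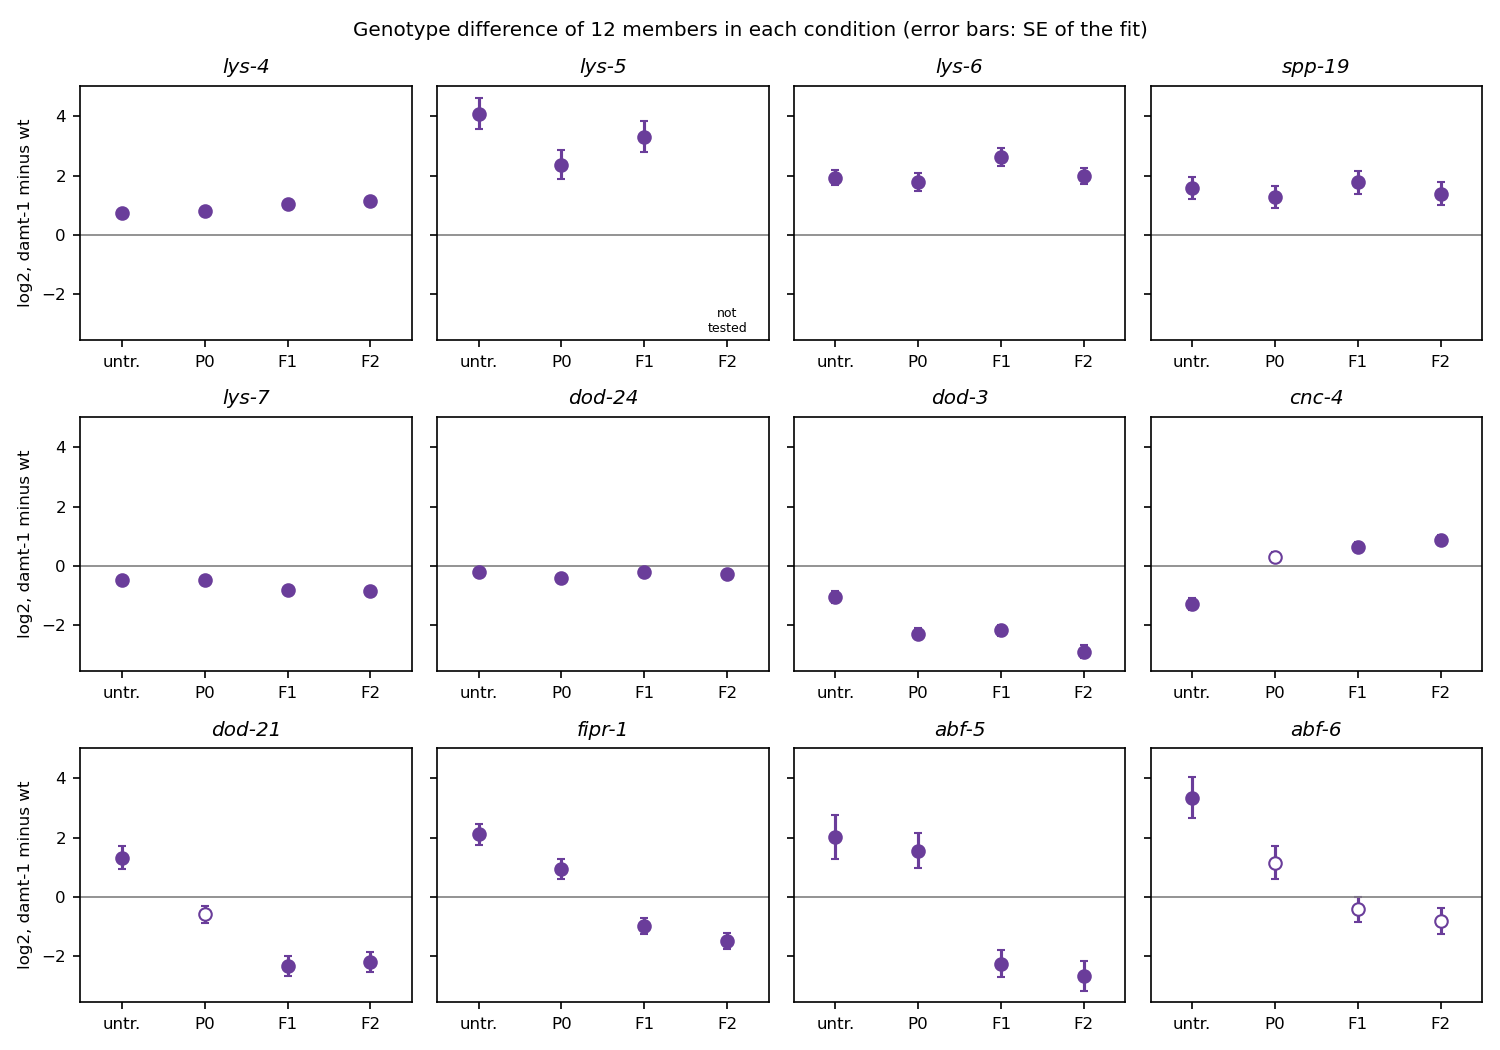
Log2 difference between damt-1 and wild type worms of the same condition for 12 members, with the standard error of the fit, filled where the adjusted p was under 0.05. The points of lys-4, lys-5, lys-6 and spp-19 lie above 0 and those of lys-7, dod-24 and dod-3 below 0 wherever tested, while dod-21, fipr-1, abf-5 and cnc-4 cross 0 between untreated and F1 worms.

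The difference between the treatment effects of the 2 genotypes was tested as an interaction. A positive value means a larger rise or a smaller fall with treatment in damt-1 worms. It passed for 9 of 53 members in P0, 4 positive and 5 negative, beside 22.0% of all transcripts (10.5% and 11.5%). It passed for 23 of 55 in F1, 7 positive and 16 negative, beside 40.4% (18.6% and 21.7%), and for 26 of 55 in F2, 8 positive and 18 negative, beside 40.1% (18.6% and 21.5%). For spp-8 it was -0.69 ± 0.08 in P0 (adjusted p = 1.9e-07), -0.9 ± 0.07 in F1 (adjusted p = 7.2e-10), then -0.88 ± 0.07 in F2 (adjusted p = 1.1e-09). For cnc-4 it was 1.58 ± 0.26 in P0 (adjusted p = 5.4e-05), 1.91 ± 0.27 in F1 (adjusted p = 3e-06), then 2.16 ± 0.27 in F2 (adjusted p = 5.9e-07). For fipr-1 it was -3.1 ± 0.45 in F1 (adjusted p = 6.5e-06) and for dod-21 -3.67 ± 0.5 (adjusted p = 2.6e-06).

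The last comparison set F1 and F2 against P0 worms of the same genotype. In wild type 13 members were higher and 4 lower in F1 than in P0 of 54 tested, beside 22.4% of all transcripts (12.2% higher and 10.2% lower). In F2 14 were higher and 4 lower than in P0 of 53, beside 22.5% (12.1% higher and 10.4% lower). The gene abf-5 was higher in F1 by 3.19 ± 0.5 (adjusted p = 4.6e-05), fipr-1 by 1.96 ± 0.3 (adjusted p = 3.8e-05) and lys-7 by 0.31 ± 0.05 (adjusted p = 3.6e-05). The gene dod-17 was lower in F1, by a log2 value of -0.2 ± 0.05 (adjusted p = 0.0036). The gene cnc-4 was lower in F2 (-0.66 ± 0.18, adjusted p = 0.012), and it did not pass without the first F2 library (-0.44, adjusted p = 0.2) or either P0 library (-0.66 and -0.65, adjusted p = 0.054 and 0.062).

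In damt-1 worms 0 of 58 members passed in F1 or F2 against P0 with edgeR, as did 0 of all transcripts, and DESeq2 also called 0. At an unadjusted p under 0.05 stood 1 member in F1 (dod-21) and 3 in F2 (dod-21, dod-3 and abf-5), beside 555 and 573 transcripts of all (4.47% and 4.62%). The largest difference of a member was that of dod-21 in F1 and that of abf-5 in F2.

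Known regulators of these genes were read from lists of signalling genes. In wild type F1 worms, to which the counts of the p38, DBL-1, insulin, epidermal and neuropeptide-like lists refer, 26.2% of all transcripts were higher and 20.7% lower, and with so few genes a list several of these shares lie near that background. Of 11 transcripts of the p38 MAPK immune pathway tested, 0 rose and 6 fell in wild type F1 worms (median -0.17, against 0.03 over all transcripts), among them the p38 kinase gene pmk-1 (-0.28 ± 0.07, adjusted p = 0.0027), its upstream kinase sek-1 (-0.26 ± 0.05, adjusted p = 0.00016) and the gut transcription factor elt-2 (-0.23 ± 0.05, adjusted p = 0.0013). The median of all transcripts itself moved by -0.15 under factors from sparse transcripts. In damt-1 P0 worms 3 rose and 0 fell, beside 8.41% and 5.68% of all transcripts, among them tir-1, the adaptor upstream of the p38 cascade (1.17 ± 0.16, adjusted p = 8.6e-06).

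Of 7 transcripts of the DBL-1 pathway, a TGF-beta pathway of body size and immunity, 0 rose and 2 fell in wild type F1 worms, and these were its ligand dbl-1 (60.4 to 35.2 CPM, -0.79 ± 0.11, adjusted p = 2.5e-06) and the Smad gene sma-2 (-0.59 ± 0.08, adjusted p = 1.2e-06). Of 7 transcripts of insulin signalling 3 rose and 0 fell, while the tested daf-16 transcript differed by -0.14 ± 0.23 (adjusted p = 0.65). Of 8 transcripts of epidermal defence signalling 2 rose and 3 fell, with sta-2, a STAT gene of the skin response, higher by 1.52 ± 0.15 (16.6 to 48.0 CPM, adjusted p = 1.8e-08) and the receptor gene dcar-1 lower by 0.47 ± 0.05 as a log2 difference (-0.47, adjusted p = 1.2e-07).

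The neuropeptide-like defence peptide genes, induced in the skin by fungi and wounds, had 2 risers and 3 fallers of 7 in wild type F1 worms. The gene nlp-34 fell from 30.9 to 13.4 CPM (-1.2 ± 0.17, adjusted p = 2.7e-06) and nlp-27 rose from 15.9 to 30.7 CPM (0.95 ± 0.16, adjusted p = 3.9e-05). In untreated damt-1 worms nlp-34 stood at 7.82 CPM (-1.97 ± 0.19 against wild type, adjusted p = 7.3e-09). Of 11 other infection response genes 0 were higher and 8 lower in untreated damt-1 than in untreated wild type worms (median -0.4, against 0.0 over all transcripts, of which 17.9% were higher and 20.3% lower), among them the C-type lectin gene clec-60 (-0.92 ± 0.08, adjusted p = 6.3e-10) and irg-1, a target of the ZIP-2 response (-0.83 ± 0.18, adjusted p = 0.00056).

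Markers of other tissues moved between the groups too. The summed level of the listed pharynx muscle and gland genes, 9 of 11, was 453 to 496 CPM in untreated and 757 to 768 CPM in F1 wild type libraries, and 291 to 292 and 413 to 418 CPM in the damt-1 ones. These pharynx genes did not all move alike. Of 8 tested, 4 rose and 2 fell in wild type F1 worms (median 0.41). In wild type F2 worms 4 rose and 3 fell (median 0.39). In damt-1 F1 worms 3 of the 8 rose and 0 fell. For 4 of 6 germ line genes the sum was 699 to 745 CPM untreated and 1050 to 1080 CPM in F1 wild type libraries. It was 571 to 584 and 451 to 457 CPM in the damt-1 ones. The intestine genes, 9 of 9, summed to between 3190 and 3520 CPM in wild type and between 3560 and 3920 CPM in damt-1 libraries. For 5 of 5 epidermis genes the sum was 631 to 660 and 723 to 759 CPM in wild type and 931 to 965 and 896 to 942 CPM in damt-1. Of these genes dpy-7 and dpy-10 are also among the furrow collagens above, so the 2 sums are not separate. In wild type F1 worms 2 of the 5 rose and 1 fell (median -0.06). No gene of these 4 lists that the tables hold stood at 0 in those groups. For 4 of 7 neuron genes the levels summed to 554 to 555 CPM in untreated and 375 to 389 CPM in F1 wild type libraries, and 3 of 4 tested fell in F1 and 4 of 4 in F2. In damt-1 libraries their sum was 467 to 473 CPM untreated and 488 to 504 CPM in F1. The 3 coelomocyte genes summed to between 80.5 and 113 CPM in all libraries. For 3 body wall muscle genes the sum was 3790 to 4190 CPM in wild type and 4400 to 4820 CPM in damt-1 libraries. The part of these lists in the members' differences was not tested.

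Members that lie next to each other in the genome did not all move alike. In the RefSeq annotation of WBcel235, another build than the one the authors used, 13 runs of neighbouring genes held at least 2 members. In the run abf-5 and abf-6 on chromosome X both rose in wild type F1 and F2 worms, and in the run lys-4, lys-5 and lys-6 all 3 were higher in damt-1 worms in untreated, P0 and F1 worms. In the run lys-1, lys-2 and lys-3 on chromosome V lys-3 was higher in untreated damt-1 worms (1.37 ± 0.36, adjusted p = 0.0037), and not without the first wild type library (1.01, adjusted p = 0.067), beside 0.0 ± 0.05 for lys-2. In the run spp-3, spp-2, spp-6, spp-4 and spp-5 on chromosome X, spp-2 rose in wild type F1 worms (0.5 ± 0.1, adjusted p = 0.00016) and spp-4 fell (-0.19 ± 0.07, adjusted p = 0.036), while spp-3 differed by -0.09 ± 0.07 (adjusted p = 0.28).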

How the data were processed

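Per the labels, RNA of whole L4 worms was sequenced in 16 libraries, 2 for each of 8 groups. The authors deposited raw counts per RefSeq transcript, read as whole numbers, in 6 tables of 2 untreated and 2 treated libraries each. The submitters' processing notes name the build ce10 and, without roles, HTSeq 0.9.1, HISAT2 2.0.5, Trimmomatic 0.35, SAMtools 1.3.1, DESeq2 1.20.0 and R 3.5.0. Whether duplicate reads were removed and whether counting used strand is not given in the sources used here. The deposited comparison tables were not used.

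Counts were joined over tables, with unlisted transcripts entered as 0 in the fit and left untested where unlisted. They were tested in R 4.3.3 with edgeR 4.0.16: filterByExpr (minimum count 10), scaling by TMM, and the robust quasi-likelihood test in 1 model of 8 group means, with p-values adjusted by Benjamini-Hochberg over all transcripts of a comparison and a threshold of 0.05. CPM used the TMM library sizes. The biological coefficient of variation was 2.18%. Lengths were the longest spliced transcript of each gene in the WBcel235 annotation. Intervals and floors (3 counts) cover counting error only. The scripts were tested on simulated data.

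Members, lists and tests were chosen with earlier results of these data known. Named members were those with the up to 4 largest called differences in each direction per comparison (2 between generations). These had at least 10 CPM and libraries apart. The 2 highest members of each subfamily and 15 preset genes were also named. Not every called difference of a named member is printed. Other members named, such as cnc-9, dod-23, fipr-9, fipr-24, lys-5 and spp-2, were added after their values were seen. Alternatives were DESeq2 1.42.0, RLE factors, library size only, TMM factors from transcripts under 0.2 counts per nucleotide, a fit restricted to the compared groups, no count filter, a limit of 10 CPM in 2 libraries, leaving out each library, a replicate block and a log2 limit of 1. Library numbers did not pair libraries across groups (r from -0.0583 to 0.0358 over 28 pairs of groups), so no block was used.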

Additional observations from a re-analysis of the deposited data

Results flagged for a closer look

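The treatment effect differed between the genotypes, by the interaction test, for these named members. Values are log2, the damt-1 effect minus the wild type effect, and no cause was tested.

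In P0 the difference was 1.58 for cnc-4, -1.92 for dod-21, -1.26 for dod-3, -0.51 for spp-23 and -0.69 for spp-8. In F1 it was 1.91 for cnc-4, 0.61 for ilys-4, 0.43 for spp-16 and 0.62 for spp-22. It was -4.27 for abf-5, -3.78 for abf-6, -3.67 for dod-21 and -3.1 for fipr-1 in the same worms. In F2 it was 2.16 for cnc-4, 0.68 for ilys-4, 0.45 for spp-16 and 0.71 for spp-22, and -4.16 for abf-6, -3.54 for dod-21, -1.86 for dod-3 and -3.61 for fipr-1. The F1 values of ilys-4 and spp-22 did not pass without the second untreated wild type library (0.56, adjusted p = 0.063, and 0.38, adjusted p = 0.25), nor without one of several other libraries (0.47 to 0.52 for ilys-4 and 0.47 to 0.68 for spp-22). The F2 value of spp-22 was 0.47 (adjusted p = 0.16) without that library, and that of ilys-4 was 0.53 (adjusted p = 0.064) without the first untreated damt-1 library.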

How the results depend on the processing

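Counts of members called moved by over 1.5 times under a few alternatives. DESeq2 called 6 in wild type P0 (12 with edgeR), 5 in damt-1 P0 (9), 4 in damt-1 F2 (8) and 11 between wild type F1 and P0 (17), and a fit of only the groups compared called 5 in damt-1 F2. With a log2 limit of 1 the counts were 5, 10 and 11 in wild type P0, F1 and F2, 4, 3 and 3 in damt-1, 17, 12, 10 and 11 between genotypes (untreated, P0, F1, F2), 10 and 11 for the F1 and F2 interactions, and 7 and 8 for wild type F1 and F2 against P0. With 1 library left out the counts ran from 4 to 8 in wild type P0 (4 without its second P0 library), 20 to 28 in F2 (20 without the second untreated library), 4 to 9, 3 to 6 and 3 to 7 in damt-1 P0, F1 and F2, and 9 to 15 and 10 to 13 for wild type F1 and F2 against P0. A group then held 1 library, assumed to vary like the others. The TMM factors from sparse transcripts reversed 6 values, to 0.01 for dod-24 between genotypes in F1, -0.01 for lys-2 in wild type F1, 0.24 and 0.17 for lys-2 between genotypes in F1 and F2, and 0.04 and 0.01 for lys-8 in the same. The cause was not tested. The factors from sparse transcripts split the members' calls 11 positive to 13 negative and 9 to 15 for the F1 and F2 interactions. For wild type F1 and F2 against P0 they split them 10 higher to 8 lower and 13 to 7. Over all transcripts these splits were 3269 to 2019 and 3045 to 2014 for the interactions. They were 945 to 2076 and 1006 to 1758 against P0. With the library number as a replicate block 32 members were called in wild type F1 (31 without it) and 30 between genotypes in F2 (32 without it). Depth limits members under about 10 counts a library.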
